A study of Mus musculus with 8 samples.

Results

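Cebpa, Cebpb, Cebpd, Cebpe, Irf8, Gfi1, Klf4 and Runx1 are transcription factors that steer blood progenitors towards the granulocyte or the monocyte lineage, and their transcript levels were followed through 8 mouse acute myeloid leukaemias of 2 genotypes. They were picked by gene symbol and make up 8 of the 18860 genes with a deposited value. All 8 passed the filter on low values, which left 14679 genes to test. Leukaemia cells came from the bone marrow of C57BL/6 mice that had become moribund, and total RNA was sequenced. The 11B3-deleted group (n = 4 libraries) had the genotype 11B3fl/p53fl;shNf1;shMll3;Vav1-Cre, in which 1 chromosome 11 loses a segment that includes Trp53 and the other loses floxed Trp53. The p53-loss-only group (n = 4 libraries) had the genotype p53fl/fl;shNf1;shMll3;Vav1-Cre, in which floxed Trp53 is lost from both. Both groups thus carried the same hairpins, shNf1 against a negative regulator of Ras and shMll3 against a histone methyltransferase, and the same Cre, expressed from the Vav1 promoter of blood cells. Each cohort is labelled as lines without naming the animals behind them, and a p-value here therefore reflects only how far these libraries spread, which may be technical. No age of the mice is stated in the sources used here.

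C/EBPα, the product of Cebpa, is needed for the formation of granulocyte and monocyte progenitors from earlier myeloid cells. From there C/EBPε and the repressor GFI1 belong to the granulocyte programme, whereas IRF8 and KLF4 belong to the monocyte programme, and GFI1 and IRF8 are known to oppose each other in progenitors. RUNX1 acts earlier and alongside them, and C/EBPβ and C/EBPδ are C/EBP proteins induced by cytokines and inflammation.

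The start regions of Irf8, Gfi1 and Runx1 are shown because theirs were the windows at outermost start sites with a match to one of the motifs searched, which are those of factors in this circuit, RUNX1's own among them. The RefSeq table for GRCm38.p6 gives 250 bases before to 50 bases after each start, and 6 of the 8 genes were matched, with 9 windows. Cebpd and Cebpe were not matched. Each sequence reads 5′ to 3′ along the gene, and positions are counted from 1 at its first base. Capitals mark matches to the motifs searched.
Irf8 (chr8:120736108-120736407, plus strand): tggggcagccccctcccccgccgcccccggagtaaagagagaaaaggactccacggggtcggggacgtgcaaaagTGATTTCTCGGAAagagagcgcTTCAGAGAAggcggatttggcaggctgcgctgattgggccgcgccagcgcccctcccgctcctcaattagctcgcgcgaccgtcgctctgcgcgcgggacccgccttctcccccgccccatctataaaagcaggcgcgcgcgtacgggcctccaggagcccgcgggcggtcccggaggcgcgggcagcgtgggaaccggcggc
Gfi1 (chr5:107725756-107726055, minus strand): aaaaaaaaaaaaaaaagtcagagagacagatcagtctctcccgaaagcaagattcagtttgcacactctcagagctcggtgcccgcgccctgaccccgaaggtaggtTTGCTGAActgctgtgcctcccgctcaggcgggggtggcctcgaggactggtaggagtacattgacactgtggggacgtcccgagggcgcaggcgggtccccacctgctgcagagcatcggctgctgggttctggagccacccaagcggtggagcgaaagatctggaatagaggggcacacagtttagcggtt
Runx1 (chr16:92826025-92826324, minus strand): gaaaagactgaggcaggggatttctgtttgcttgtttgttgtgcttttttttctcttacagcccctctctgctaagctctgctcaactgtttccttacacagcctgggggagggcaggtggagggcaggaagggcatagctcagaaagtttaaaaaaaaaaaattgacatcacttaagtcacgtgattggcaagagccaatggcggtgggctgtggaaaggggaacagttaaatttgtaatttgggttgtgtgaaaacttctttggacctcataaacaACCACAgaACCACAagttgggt

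In the Irf8 window the GFI1 letters AAATCA lay on the minus strand at bases 76 to 81. They overlapped the first of a pair of STAT-type letters TTCNNNGAA, at bases 80 to 88 and 98 to 106. The Gfi1 window held the C/EBP letters TTGCNNAA at bases 108 to 115. The Runx1 window held the RUNX letters TGTGGT on the minus strand at bases 279 to 284 and again at bases 287 to 292. Both strands were searched, also for the PU.1 letters GAGGAA and the KLF letters CACACCC. The windows at the outermost starts of Cebpa, Cebpb and Klf4 held none of these 6 motifs. Among 32851 RefSeq promoters of the same length, 14% held the GFI1 letters, 8.3% the STAT letters, 10.8% the C/EBP letters, 16.8% the RUNX letters, 28.3% the PU.1 letters and 7.95% the KLF letters. A match is a description of the letters and not a measured binding site.

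The deposited value of a gene, its read count over a size factor plus 1, allows 1 gene to be compared between libraries. The libraries held 30591456 to 35719495 reads in the 11B3-deleted group and 30502718 to 33365364 reads in the p53-loss-only group. The lowest count of any of the 8 factors was 215 reads of Cebpe in a library (exact Poisson 95% interval 187 to 246, counting error only), so counting error was small beside the spread between libraries. Trp53 had values of 189.2 to 392.5 in the 11B3-deleted and 300.2 to 577.1 in the p53-loss-only libraries (log2 difference -0.46 with the deposited value, limma adjusted p = 0.996). All 11 myeloid markers tested had reads in every library, and their summed value was 155113 to 549093 against 178985 to 334867. Libraries also carried transcripts of other cell types. The 13 erythroid marker genes summed to 194330 in 11B3-deleted replicate 1 and to 2804 to 52374 elsewhere. Most of the highest sum came from the carbonic anhydrase genes Car1 (118944) and Car2 (43867), and the median over the 13 genes, relative to their means, was highest in p53-loss-only replicate 2 (1.91 against 1.10 on the log2 scale), where the globin gene Hbb-b1 peaked at 6528. The 12 B cell marker genes summed to 59143 in 11B3-deleted replicate 3 and to 492.3 to 2564 elsewhere, with Rag1 at 0 reads in at least 1 library.

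To compare the factors with each other, values were divided by exon length and given per kilobase. The length was that of all annotated exons of a gene joined, 2636 bases for Cebpa, 7055 for Irf8 and 12025 for Runx1. Which transcripts were expressed was not tested, and a shorter length would raise the level of a gene. Before division the mean value was 13637 for Irf8 and 9858 for Cebpa, so their order depends on the length used. Cebpa had the highest level, 3739 ± 1502 per kilobase (SD, n = 8 libraries), followed by Irf8 with 1933 ± 915.3 per kilobase and Klf4 with 1190 ± 367 per kilobase. Gfi1 (775.6 ± 406.8 per kilobase), Cebpe (765.7 ± 589.3 per kilobase) and Cebpb (719.1 ± 151.5 per kilobase) lay close together. Runx1 had 508 ± 142.9 per kilobase and Cebpd 310.2 ± 121.2 per kilobase. Per kilobase, Cebpa exceeded Irf8, Irf8 exceeded Klf4, Cebpb exceeded Runx1 and Runx1 exceeded Cebpd in 8 of 8 libraries. Klf4 exceeded Gfi1 in 7 of 8 and Gfi1 exceeded Cebpe in 6 of 8. Cebpe exceeded Cebpb in only 2 of 8 libraries, although its mean per kilobase was higher, so these neighbours were not ordered beyond their spread. In mean level per length the monocyte factors Irf8 and Klf4 therefore both stood above the granulocyte factors Gfi1 and Cebpe. This order of the means did not hold in every library. The highest Cebpe, 2087.7 per kilobase in 11B3-deleted replicate 3, lay above the highest Klf4 of any library, 1940.4, and above the Irf8 mean.

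Among the granulocyte factors, Cebpe, which drives the late maturation of neutrophils and their secondary granules, varied most between leukaemias. In replicate order, as for all values that follow, Cebpe had 210.9, 620.9, 2592 and 1099.8 in the 11B3-deleted libraries, against 808.9, 780.8, 401.2 and 1096 in the p53-loss-only libraries. The highest library stood 12.3-fold above the lowest, both of them were 11B3-deleted, and the p53-loss-only values lay inside that range. Gfi1, the zinc-finger repressor of monocyte genes in granulocyte precursors, had values of 677.6, 1924, 1918 and 5208 in the 11B3-deleted and 2487, 1996, 2662 and 2908 in the p53-loss-only libraries. Its highest and lowest libraries differed 7.69-fold and were again both 11B3-deleted. In p53-loss-only leukaemias Gfi1 stayed within a narrow band (SD 385.6 against 1941 in the 11B3-deleted ones), a difference in spread that was not tested.

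Irf8, the interferon regulatory factor required for monocytes and many dendritic cells, had values of 9183, 8874, 11317 and 13079 in the 11B3-deleted libraries, against 22868, 9598, 24780.1 and 9399 in the p53-loss-only libraries. A pair of p53-loss-only leukaemias thus stood above the other 6 libraries, and the remaining p53-loss-only libraries lay among the 11B3-deleted ones. Klf4, a Krüppel-like factor of the monocyte programme, had values of 2354, 3328, 4268 and 2701 in the 11B3-deleted and 5917, 3386, 4029.6 and 3059 in the p53-loss-only libraries. Its highest value was in p53-loss-only replicate 1 and the range was 2.51-fold, narrower than for Cebpe or Gfi1.

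Cebpa, the C/EBP gene of the common progenitor step, had values of 5225, 12281, 4643 and 12858 in the 11B3-deleted and 14772, 6955, 13374 and 8756 in the p53-loss-only libraries. The 11B3-deleted libraries formed a low and a high pair, and the p53-loss-only libraries reached from between them to above them. Cebpb, tied to emergency granulopoiesis and macrophages, had values of 689.3, 812.4, 1107 and 1157.5 in the 11B3-deleted and 1208, 1047, 1305 and 1334 in the p53-loss-only libraries. Only p53-loss-only replicate 2 fell inside the 11B3-deleted range, and the whole range of 1.94-fold was the narrowest of the 8 factors. Cebpd, a C/EBP gene induced by cytokines, had values of 647.3, 1059.9, 891.8 and 2041 in the 11B3-deleted and 1370.1, 920.2, 1519 and 856.1 in the p53-loss-only libraries. Its extremes were 11B3-deleted replicates 1 and 4. Runx1, the DNA-binding subunit of core binding factor, had values of 4787, 5044, 5469 and 8915 in the 11B3-deleted and 7360.3, 3755, 7639 and 5906 in the p53-loss-only libraries. Here 11B3-deleted replicate 4 stood far above the other 3 of its group. In bulk RNA, fewer cells of a type and less RNA per cell cannot be told apart for any of these genes.

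**Figure D1:**
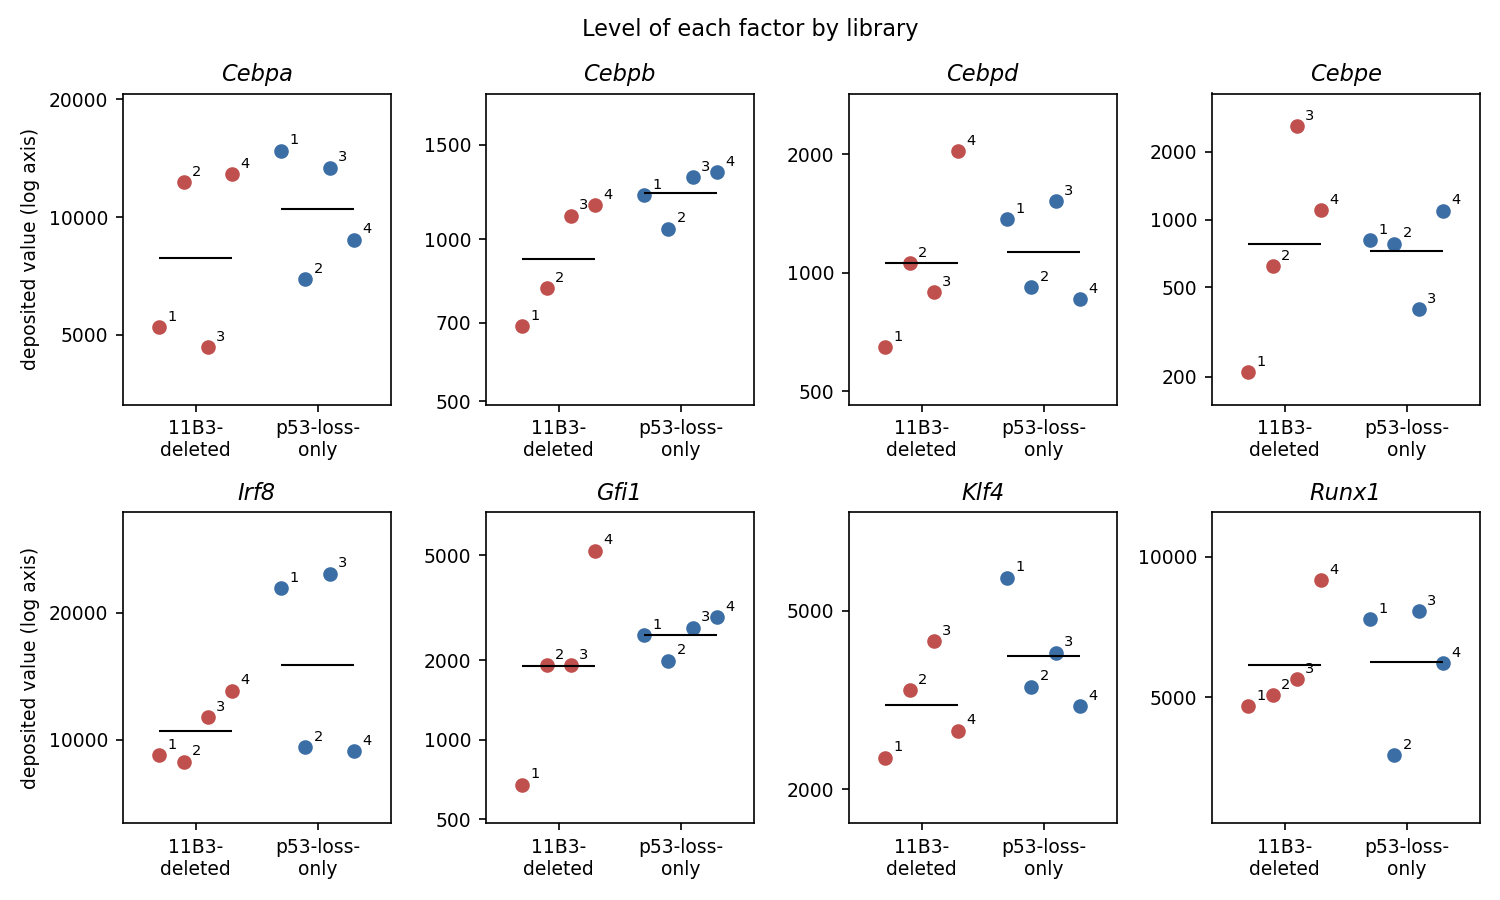
Deposited value (log axis) of each of the 8 factors in each library, with the replicate number beside each point and a line at the mean of the log2 values of each group (n = 4 libraries each). The 2 groups overlap for every factor, Cebpe and Gfi1 spread most within the 11B3-deleted group, and p53-loss-only replicates 1 and 3 stand above the rest for Irf8.

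The question asked of the genotypes is whether losing the chromosome 11 segment with Trp53, rather than Trp53 alone, went with other levels of these factors. No difference passed the test: 0 of the 8 factors were called at an adjusted p under 0.05 by limma, by edgeR or by DESeq2, and 0 had an unadjusted limma p under 0.05. Over all 14679 genes limma called 0.0136%, edgeR 0.00681% and DESeq2 0.395%, and 3.56% had an unadjusted limma p under 0.05 (1.18% higher and 2.38% lower in 11B3-deleted leukaemias). The groups overlapped for all 8 factors, whereas 2.15% of all genes tested showed no overlap. None of the 8 genes lies on chromosome 11.

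The monocyte factor Irf8 had the largest difference in size, a log2 difference of -0.52 between 11B3-deleted and p53-loss-only leukaemias (SE 0.35, 95% interval -1.31 to 0.27). Its arithmetic means were 10613 ± 1970.3 and 16661 ± 8308 (SD, n = 4 each). The log2 difference was -0.36 for Klf4 (SE 0.26, 95% interval -0.94 to 0.22) and -0.39 for Gfi1 (SE 0.51, 95% interval -1.55 to 0.77). For Cebpe it was 0.11 (SE 0.68, 95% interval -1.44 to 1.65), wide enough to hold a 2-fold difference in either direction. On the recovered reads edgeR gave -0.05 for Gfi1 and 0.56 for Cebpe, with adjusted p = 0.998 and 0.996. The log2 differences of the other C/EBP genes were -0.41 for Cebpa (SE 0.40, 95% interval -1.31 to 0.49), -0.40 for Cebpb (SE 0.21, 95% interval -0.88 to 0.075) and -0.10 for Cebpd (SE 0.36, 95% interval -0.91 to 0.71). Cebpb had the smallest unadjusted limma p of the 8, 0.0885. Runx1 had a log2 difference of -0.02 (SE 0.28, 95% interval -0.65 to 0.61). The adjusted limma p was 0.999 for Runx1 and 0.996 for the other 7 factors.

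In 7 of the 8 factors the mean log2 value was lower in the 11B3-deleted group, with a median log2 difference of -0.38, while 48.4% of all genes tested were lower and their median was 0.01. That count rested on a single library. 11B3-deleted replicate 1 had the lowest value of all 8 libraries for 5 factors, Cebpb, Cebpd, Cebpe, Gfi1 and Klf4, and without it 4 of 8 factors were lower, with a median of -0.07, against 49.9% of all genes. The same library had the highest erythroid marker sum, mostly from Car1 and Car2, and the part of those transcripts in these values was not tested. In p53-loss-only replicate 2, which had the highest median of the erythroid markers, only Runx1 was at its lowest. At the other end, 11B3-deleted replicate 4 had the highest Cebpd, Gfi1 and Runx1 of the 8 libraries and also the highest myeloid marker sum. Most of that sum, 414041 of 549093, came from the granule gene Mpo. The median over the 11 myeloid markers, relative to their means, was 0.495 there against 0.429 and 0.418 in p53-loss-only replicates 1 and 3. With 11B3-deleted replicates 1 and 3 both left out, the log2 difference was 0.26 for Cebpa, 0.38 for Cebpd, 0.35 for Gfi1 and 0.17 for Runx1, and it stayed negative for Irf8 (-0.48), Klf4 (-0.40) and Cebpb (-0.33). Without 11B3-deleted replicate 3 alone, Cebpe had a log2 difference of -0.47.

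**Figure D2:**
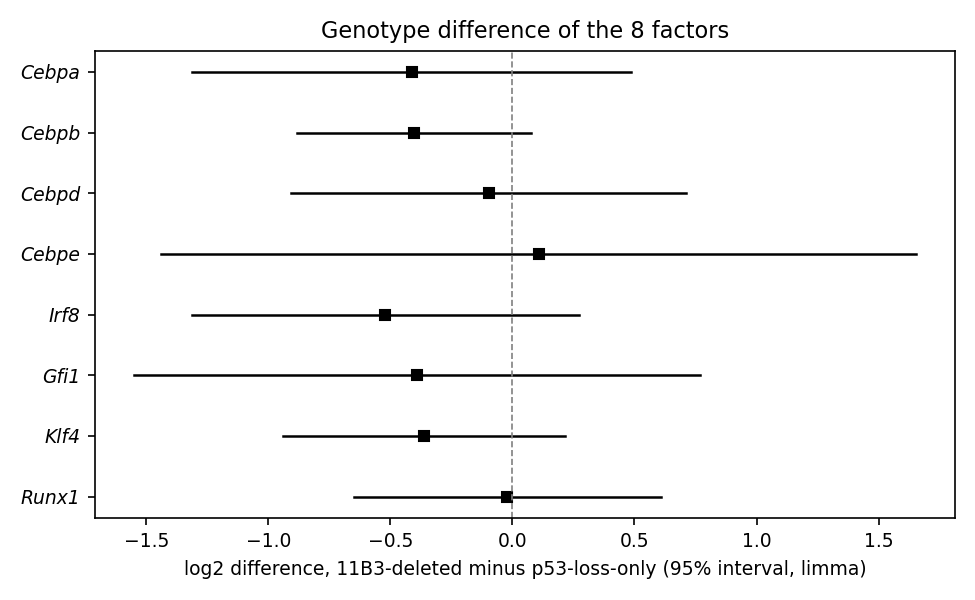
Log2 difference between the group means (11B3-deleted minus p53-loss-only) of each factor, with its 95% interval from the limma fit (n = 4 libraries a group). Every interval includes 0, and the interval of Cebpe, from -1.44 to 1.65, is the widest.

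The balance between the lineages was taken in each library as the mean log2 value of Cebpe and Gfi1 minus that of Irf8 and Klf4, and centred on its mean over the 8 libraries. It was -1.25, 0.06, 0.73 and 1.06 in the 11B3-deleted libraries and -0.66, 0.18, -0.90 and 0.79 in the p53-loss-only libraries. Values above and below the mean thus occurred in both genotypes, and the zero is only that mean. The group means were 0.15 ± 1.02 and -0.15 ± 0.78 (SD, n = 4 each), a difference of 0.30 on the log2 scale that was smaller than the spread within either group, and no test was made on this score. Taken by pairs, the difference was 0.63 for Cebpe minus Irf8 and -0.03 for Gfi1 minus Klf4. Between the extreme leukaemias, both of them 11B3-deleted, the balance differed by 2.31 on the log2 scale, or 4.95-fold. When each library was left out in turn, the difference between the groups lay between -0.003 and 0.77.

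The score was also read as single pairs of factors, whose percentages are not scaled by length and compare libraries only. The value of Cebpe was 2.3%, 7%, 22.9% and 8.41% of that of Irf8 in the 11B3-deleted libraries, and 3.54%, 8.13%, 1.62% and 11.7% in the p53-loss-only libraries. This ratio had a 14.1-fold range, with 11B3-deleted replicate 3 at the top and p53-loss-only replicate 3 at the bottom. The value of Gfi1 was 7.38%, 21.7%, 16.9% and 39.8% of that of Irf8 in the 11B3-deleted libraries, and 10.9%, 20.8%, 10.7% and 30.9% in the p53-loss-only libraries. Replicate 4 of each group had the highest share, and the range was 5.4-fold. Against Klf4, the value of Gfi1 was 28.8%, 57.8%, 44.9% and 193% in the 11B3-deleted and 42%, 59%, 66.1% and 95.1% in the p53-loss-only libraries. The top library was 11B3-deleted replicate 4, and the range was 6.7-fold. The granulocyte factors did not vary as one, since Cebpe over Gfi1 had an 8.97-fold range, whereas Klf4 over Irf8 had a 2.32-fold range.

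Libraries with a similar balance differed in which factors were high or low. In 11B3-deleted replicate 3 Cebpe lay 1.78 above its mean log2 value over the 8 libraries, Gfi1 lay at -0.18 and Cebpa at -0.97, its lowest. In 11B3-deleted replicate 4 Gfi1 lay 1.26 above its mean, Cebpe 0.55 and Cebpa 0.50. Among the libraries with a low balance, p53-loss-only replicates 1 and 3 had Irf8 at 0.87 and 0.98 above its mean. By contrast, 11B3-deleted replicate 1 had Irf8 at -0.45 and Klf4 at -0.57, and its balance was low through Cebpe at -1.84 and Gfi1 at -1.68. The top Cebpe library was also the one with the highest B cell marker sum and with the eosinophil granule gene Prg2 at 4828 (4.29 to 409.3 elsewhere). The list that holds Prg2, 8 tested mast cell, basophil and eosinophil markers, had a median of -0.77 relative to their means in that library. The part of B cell and eosinophil transcripts in its Cebpe value was not tested.

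**Figure D3:**
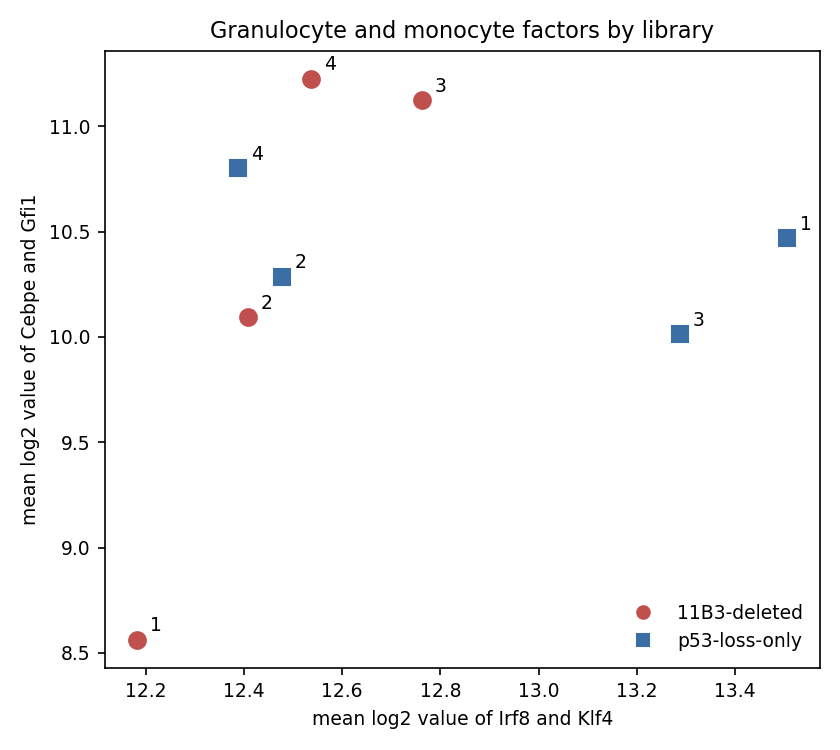
Mean log2 value of Cebpe and Gfi1 (vertical axis) against that of Irf8 and Klf4 (horizontal axis) in each of the 8 libraries, coloured by group and numbered by replicate. The libraries run from 8.56 (11B3-deleted replicate 1) to 11.23 (11B3-deleted replicate 4) for the granulocyte factors and from 12.18 to 13.51 for the monocyte factors, and the groups overlap in both.

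Correlations across libraries were computed for the 6 pairs of these 4 factors, with exact two-sided permutation tests and Benjamini-Hochberg adjustment over the 6 pairs, and no pair passed. Cebpe and Gfi1 had Pearson's r = 0.56 (exact permutation p = 0.134, adjusted 0.54) and Spearman's rho = 0.36 (exact p = 0.389, adjusted 0.779) over 8 libraries. Cebpe and Klf4 had r = 0.37 (exact permutation p = 0.36, adjusted 0.54) and rho = 0.26 (exact p = 0.536, adjusted 0.805). Gfi1 and Klf4 had r = 0.24 (exact permutation p = 0.566, adjusted 0.679) and rho = -0.05 (exact p = 0.935, adjusted 0.935). None of these 3 pairs showed an inverse r over the 8 libraries.

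Because Irf8 fell into 6 low and 2 high libraries, separated by a gap of 54.4% of its log2 range, its pairs were read within the 6. There Irf8 and Gfi1, the factors known to oppose each other, had r = 0.64 (exact permutation p = 0.192, adjusted 0.54) and rho = 0.49 (exact p = 0.356, adjusted 0.779). Irf8 and Cebpe had r = 0.57 (exact permutation p = 0.276, adjusted 0.54) and rho = 0.83 (exact p = 0.0583, adjusted 0.35). Irf8 and Klf4, both of the monocyte programme, had r = 0.09 (exact permutation p = 0.868, adjusted 0.868) and rho = 0.20 (exact p = 0.714, adjusted 0.857). Without the pair of libraries farthest from the median of the first-named gene, r was 0.49 for Cebpe with Gfi1, -0.37 for Cebpe with Klf4 and 0.06 for Gfi1 with Klf4, over 6 libraries each. For the Irf8 pairs, where the first-named gene was Gfi1, Cebpe and Irf8 in turn, r became -0.26 with Gfi1, 0.64 with Cebpe and 0.13 with Klf4 over 4 libraries. The sign for Gfi1 with Irf8 and for Cebpe with Klf4 thus rested on the libraries left out. With the mean of each genotype removed, r was 0.59 for Cebpe with Gfi1 and 0.76 for Gfi1 with Irf8, and no pair passed either.

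The genes whose pattern over the 8 libraries was most like each factor were taken from 10174 genes with a mean value of at least 100, and each r is a description over libraries that share their depth scaling and cell mixture. For Cebpa these were Mob3a (r = 0.988), Polr3gl (0.984) and Gnaq (0.981). For Cebpe they were Rdh12 (0.99), Trp53inp2 (0.916) and Rere (0.915), and Olfm4, a gene of maturing neutrophils, ranked 6 (0.906). For Gfi1 they were Inpp1 (0.974), Chpt1 (0.961) and Sirt1 (0.955), and Elane, the neutrophil elastase gene of primary granules, ranked 6 (0.943). For Irf8, which had 2 libraries above the other 6, they were Cisd3 (0.976), Nfxl1 (0.97) and Tmem109 (0.966), and the chemokine gene Ccl9 ranked 12 (0.909). For Klf4 they were Aspscr1 (0.907), Camkk2 (0.89) and Icmt (0.884), the lowest top values of the 8 factors.

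For Cebpb the closest genes were Gnptg (0.966), Ccdc158 (0.964) and Pisd-ps2 (0.964). For Cebpd they were Trim30a (0.982), Rab44 (0.982) and Irgm2 (0.98), and Ms4a3, a gene of granulocyte and monocyte progenitors, ranked 5 (0.959). For Runx1 they were Ccdc124 (0.971), Atp10a (0.955) and Creb3l2 (0.949). The most opposite genes were Wdr92 for Cebpa (-0.988), Snupn for Cebpb (-0.98), Dgke for Cebpd (-0.976), Azi2 for Cebpe (-0.966), Slc9a8 for Irf8 (-0.974), Qars for Gfi1 (-0.978), Ndnl2 for Klf4 (-0.946) and Gramd1c for Runx1 (-0.947). Among the 8 factors themselves the highest r was that of Cebpd, which had 0.826 with Gfi1, 0.817 with Runx1 and 0.793 with Cebpa. Cebpe had an r of -0.121 with Cebpa. Over all 8 libraries, its 2 high ones included, Irf8 had an r of 0.679 with Klf4, 0.367 with Gfi1 and -0.07 with Cebpe, which differ from the values within the 6, for Cebpe also in sign. In the libraries Elane had 17364, 42829.9, 34720.3 and 73238 in the 11B3-deleted and 64384, 34418, 54888 and 53746 in the p53-loss-only group, lowest and highest in the same leukaemias as Gfi1. Olfm4 had 390.5, 3014, 13326 and 5598 against 1227, 5611, 786.1 and 8789.6, with its lowest and highest values in the same leukaemias as Cebpe. Olfm4 does not stand for the 15 secondary granule genes read below. Relative to their means, these had a median of -0.93 in 11B3-deleted replicate 1, where Cebpe was lowest. In 11B3-deleted replicate 3, where Cebpe was highest, their median was only 0.18.

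Genes of the lineages these factors steer, some of them known targets, were read as lists, by counts and medians. Of 15 secondary granule and later neutrophil genes tested, a list that includes C/EBPε targets, 6 had a higher and 9 a lower mean in 11B3-deleted leukaemias. Their median log2 difference was -0.16, with 0 calls by limma, edgeR or DESeq2. Without 11B3-deleted replicate 1 only 4 of the 15 were lower, with a median of 0.13. Lcn2, which encodes a siderophore-binding granule protein, had a log2 difference of -0.28 (SE 0.42) and Camp, the cathelicidin gene, 0.42 (SE 0.53). Of 8 primary granule genes, 3 were higher and 5 lower (median -0.18, 0 calls by the 3 tools). Without 11B3-deleted replicate 1, 4 of these 8 were lower with a median of -0.01, and without 11B3-deleted replicate 4 the median was -0.38. Mpo, the myeloperoxidase gene, had a log2 difference of 0.61 (SE 0.51) and Elane -0.45 (SE 0.41).

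Of 31 monocyte genes tested, 4 had a higher and 27 a lower mean in 11B3-deleted leukaemias, with a median log2 difference of -0.55. Limma and edgeR called 0 of them, DESeq2 called Cd68 alone, and 4 had an unadjusted limma p under 0.05. Over all genes tested, 48.4% were lower, DESeq2 called 0.395% and 3.56% had an unadjusted limma p under 0.05. The groups did not overlap for 2.15% of all genes tested. Cd68, a macrophage glycoprotein gene, lies in the deleted chromosome 11 segment; without it 26 of 30 were lower, with a median of -0.53. Leaving out each library in turn, 22 to 31 of the 31 were lower, the median lay between -0.64 and -0.32, the latter without p53-loss-only replicate 3, and 0 were called by limma. Markers of some other cell types all had higher means in the 11B3-deleted group. These were 13 of 13 erythroid (median 0.73), 12 of 12 B cell (median 1.84) and 8 of 8 stroma and endothelium genes (median 0.62). Single libraries did not follow the group means. Relative to their means, the B cell genes had medians of -1.06, -1.46, 5.855 and 0.81 in the 11B3-deleted libraries. In the p53-loss-only libraries these were 0.04, 0.30, -1.53 and -1.62. The erythroid medians were 1.10, -0.43, 0.68 and 0.825 against 0.47, 1.91, -3.06 and -1.76. Those of stroma and endothelium were -0.74, 0.88, 0.595 and 0.64 against -0.03, 0.90, -1.37 and -0.47. Other lists were split, with 4 T cell genes higher and 6 lower (median -0.125) and 2 NK cell genes higher and 4 lower (median -0.40). Of the dendritic genes 7 were higher and 5 lower (median 0.06), and of the megakaryocyte genes 6 and 2 (median 0.36). Of the mast cell, basophil and eosinophil genes 5 were higher and 3 lower (median 0.83). Limma, edgeR and DESeq2 made 0 calls in these lists. The part of these markers in the monocyte values was not tested. Csf1r, the receptor gene for the monocyte growth factor M-CSF, had values of 10982, 13667, 7114 and 19231 in the 11B3-deleted and 21428, 13795, 31266 and 10359 in the p53-loss-only libraries, and p53-loss-only replicates 1 and 3, the high Irf8 libraries, were its 2 highest. Cx3cr1, a chemokine receptor gene of monocytes, had values of 82.79 to 1236.5 in the 11B3-deleted and 2281 to 3890.4 in the p53-loss-only libraries, with no overlap (log2 difference -2.34, SE 0.78, limma adjusted p = 0.996; -1.41 without 11B3-deleted replicate 2).

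By library, the median of the 31 monocyte genes relative to their means was 0.74 and 0.72 in p53-loss-only replicates 1 and 3 and between -0.65 and 0.17 in the other 6. The same 2 leukaemias differed in the secondary granule genes, with medians of 0.41 and -0.96. The secondary granule median was also low, -0.93, in 11B3-deleted replicate 1, the leukaemia with the least Cebpe and Gfi1. In p53-loss-only replicate 4 it was -0.53 although Cebpe lay 0.54 above its mean, so the factor and the list were not ordered alike across the leukaemias.

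**Figure D4:**
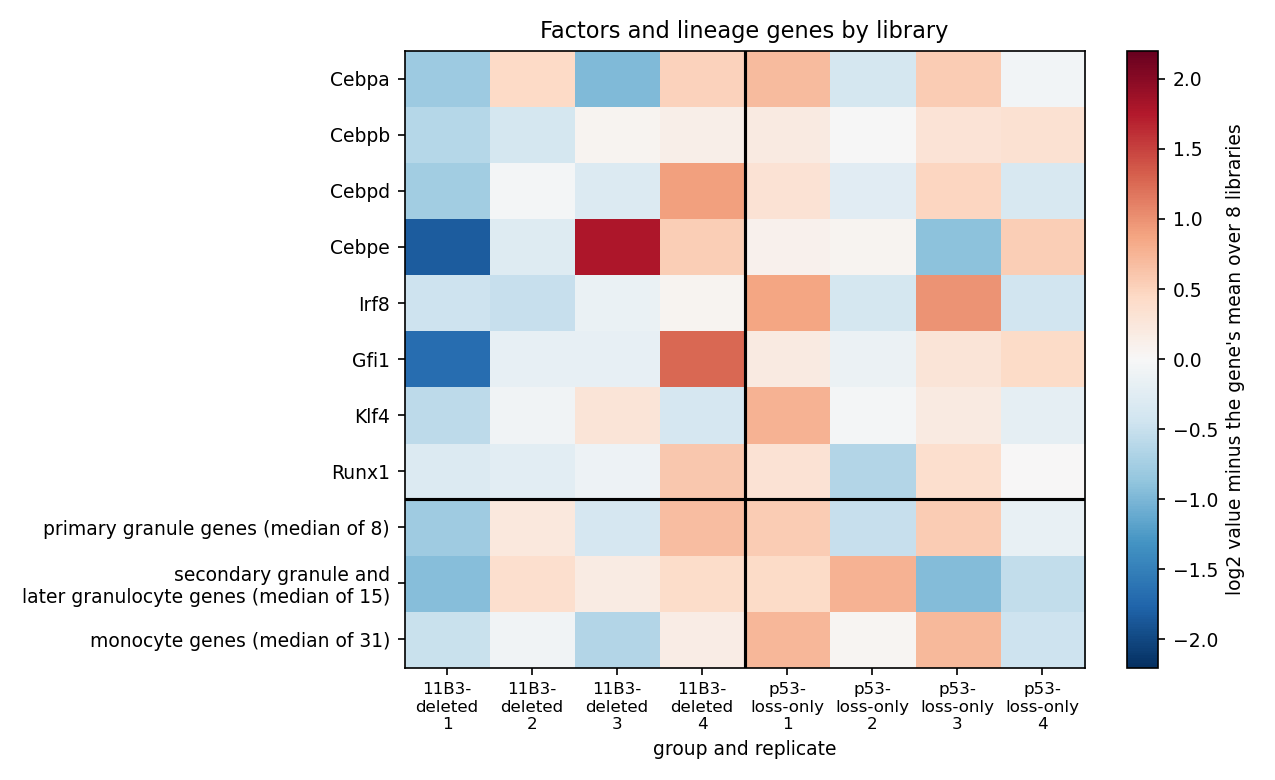
Log2 value minus the mean over 8 libraries for the 8 factors, and the median of the same quantity over 8 primary granule, 15 secondary granule and 31 monocyte genes, in each library by group and replicate. Red is above and blue below the mean, with Cebpe ranging from -1.84 in 11B3-deleted replicate 1 to 1.78 in 11B3-deleted replicate 3.

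The families and partners of the 8 factors gave few differences. Of 11 C/EBP relatives and regulators, 4 were higher and 7 lower in 11B3-deleted leukaemias (median -0.05, 0 calls by limma, edgeR or DESeq2). Trib2, a pseudokinase gene whose product promotes C/EBPα degradation, had values of 538, 82.79, 2204 and 118.2 in the 11B3-deleted and 84.51 to 139.5 in the p53-loss-only libraries (log2 difference 1.64, SE 0.92). Its 2 high libraries, 11B3-deleted replicates 1 and 3, were those with the least Cebpa transcript, and without them the remaining 11B3-deleted values, 82.79 and 118.2, lay close to the p53-loss-only ones. Replicate 1 also had the highest erythroid and replicate 3 the highest B cell marker sum. Degradation concerns the C/EBPα protein, and a link between Trib2 and Cebpa transcript was not tested. Trib1, a related gene, had 948.7 in p53-loss-only replicate 1 and 83.39 to 258.7 elsewhere.

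Of 7 other interferon regulatory factor genes tested, 2 were higher and 5 lower (median -0.17). Irf4, a factor of lymphoid and macrophage cells, had values of 159.2, 4612, 1072 and 157.2 in the 11B3-deleted and 82.57 to 134 in the p53-loss-only libraries, with no overlap. It passed DESeq2 (adjusted p = 0.00636) but not limma (log2 difference 2.53, SE 0.99, adjusted p = 0.996), and without 11B3-deleted replicate 2 the log2 difference was 1.54. Of 23 other myeloid transcription factor genes, 5 were higher and 18 lower (median -0.11). Sfpi1, the older symbol of the gene for PU.1, varied little, with values of 6670 to 8199.6 in all 8 libraries and a log2 difference of -0.02.

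Of 7 genes for GFI1's relative and corepressors, 4 were higher and 3 lower (median 0.09), of 11 other Krüppel-like factor genes 6 were higher and 5 lower (median 0.07), and of 8 genes for RUNX relatives and partners 7 were higher and 1 lower (median 0.13), each with 0 calls by limma, edgeR or DESeq2. Cbfb, the partner subunit of RUNX1, had a log2 difference of 0.22 (SE 0.17). Of 14 genes known to be repressed by GFI1, 4 were higher and 10 lower (median -0.23), and of 8 C/EBPα target genes 3 were higher and 5 lower (median -0.22), again with 0 calls by the 3 tools. The C/EBPα list was not split into activated and repressed targets, so its counts have no single expected direction. These lists share members, such as Csf1r and Elane, with those above. Gfi1b and Klf1, both of the erythroid programme, had their highest values, 2034 and 3755, in 11B3-deleted replicate 1, the library with the highest erythroid marker sum (mostly Car1 and Car2), and the part of erythroid transcripts in the lower Cebpe and Gfi1 values of that library was not tested.

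Exons of 3 of the 8 factors overlap a gene with a row of its own on the opposite strand in the GENCODE annotation of GRCm38. These are Tmem189 for Cebpb (values of 994.2 to 1601 over the 8 libraries), Spidr for Cebpd (1283 to 2556) and A430072P03Rik for Gfi1 (38.1 to 256.0). The sources used here do not say whether reads were counted by strand. Without strand, the reads of Cebpb, Cebpd and Gfi1 in the shared exons cannot be told apart from those of these genes.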

How the data were processed

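Total RNA from 8 leukaemia libraries, 4 per genotype, was sequenced by the authors. Tools listed in the submitters' processing notes are STAR, HTSeq and DESeq, with mm9 as the genome build; neither their roles nor versions are given there. Each deposited signal value is a read count divided by a library's size factor with 1 added, as the values show: after subtraction of 1, 100% of values were whole multiples of the library's step within a tolerance of 0.02. The depth was 30502718 to 35719495 reads, and 3 reads correspond to values of 3.663 to 4.29, so every factor was measured far above that floor. In all 28 pairs the libraries differed by more than sampling noise (lowest chi-square per degree 86.82), so none was treated as a repeated deposit; this says nothing of which animals they came from. Intervals from reads cover counting error only.

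Sample titles gave the groups. The main test was limma-trend (limma 3.58.1, R 4.3.3) on log2 deposited values, two-sided, with group as the only term and Benjamini-Hochberg adjustment at 0.05 over the 14679 genes that reached 10 in 4 or more libraries. The deposited 1 acted as the pseudocount, which understates folds of genes with few reads. Counts recovered from the values were tested as alternatives with edgeR 4.0.16, which called 1 gene, and DESeq2 1.42.0. Other alternatives were TMM scaling, an added constant of 5, no filter, a mean value of at least 100, the replicate number as a block and each library left out. Leaving out 11B3-deleted replicates 1 and 3 together was chosen after seeing the data. Values per kilobase used the joined length of all exons of a gene in GENCODE M21, a newer build (GRCm38) than the authors' mm9. Promoter sequences and coordinates are RefSeq's for GRCm38.p6. The procedure was tested on simulated data.

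The 8 factors and all gene lists were chosen with earlier results of these data known. The text names the 8 factors, up to 4 genes of each list with the smallest limma p plus any past the threshold, and the 3 genes most like and the 1 most unlike each factor (Gm and Rik names left out). Olfm4, Ms4a3, Ccl9, Rag1, Sfpi1, the genes overlapping a factor and all comparisons of single libraries were chosen after their values were seen. A gene that this rule takes is not reported here.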

Additional observations from a re-analysis of the deposited data

Results flagged for a closer look

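Runx1 in 11B3-deleted replicate 4 had a value of 8915.4, far from the other 3 libraries of its group, which had 4787 to 5469. The gap to the nearest of them was 0.835 of the range of the group, above Dixon's critical value for 4 samples. Of 18 groups of 4 libraries examined this was the 1 that passed, and chance alone passes about 1 in 20. Without that library the log2 difference of Runx1 between the genotypes was -0.22.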

How the results depend on the processing

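Over 128 alternative values of the 8 factors' genotype differences, 113 kept their sign, 15 changed it and 0 passed the test (smallest limma adjusted p = 0.647). Changing the filter or adding the replicate block cannot move a log2 difference of these factors, so those signs were kept by construction. The 15 changes all came from leaving libraries out. Leaving out each library in turn gave log2 differences of -0.42 to 0.14 for Cebpd, -0.47 to 0.74 for Cebpe, -0.88 to 0.105 for Gfi1 and -0.24 to 0.10 for Runx1, whose signs therefore depended on single libraries. The differences stayed negative for Cebpa (-0.65 to -0.16), Cebpb, Irf8 (-0.75 to -0.28) and Klf4. Without 11B3-deleted replicates 1 and 3 together, the sign also changed for Cebpa (0.26), Cebpd (0.38), Gfi1 (0.35) and Runx1 (0.17); the 2 remaining libraries of the group were compared with 4. Log2 differences from edgeR and DESeq2 kept their signs but were larger than limma's for Cebpe (0.56 with edgeR and 0.56 with DESeq2) and nearer 0 for Gfi1 (-0.05 with both) and Cebpd (-0.01 with both). Without the pair of libraries farthest from the median, r was -0.26 for Gfi1 with Irf8 and -0.37 for Cebpe with Klf4.

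The number of genes called over all genes was 2. It was 1 with a constant of 5 added, 1 with a mean value of at least 100, 1 with edgeR, 58 with DESeq2, 0 without 11B3-deleted replicates 1 and 3, and 0 to 1 when each library was left out. With the replicate number as a block it was 0, and the difference of Irf8 was -0.52 (limma adjusted p = 1). Libraries with the same number did not deviate together (r of -0.414 to -0.03 over 4 pairs), and those with unlike numbers had r of -0.365 to 0.453. No pairing by number was seen, though 4 pairs are too few to settle it. The cause of these changes was not tested. No factor had under 215 reads in a library, so counting error was small beside the spread between libraries.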
